A study of Homo sapiens with 8 samples.

Results

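The lorlatinib-resistant line erLor0 was compared with the treatment-naive H3122 line it came from, in RNA and in acetylation of histone H3 at lysine 27 (H3K27ac). H3122 is a human lung adenocarcinoma cell line whose growth depends on the EML4-ALK fusion kinase. The erLor0 derivative is labelled as having evolved resistance in 2 μM lorlatinib, the naive line as having none. Both H3K27ac libraries carry the same medium with serum and the same DMSO vehicle in their labels. According to the methods, RNA was taken after a drug-free interval and the resistant derivatives had been selected under gradually raised inhibitor. The table examined holds 2 further derivatives, erCriz0, labelled 0.5 μM crizotinib, and erAlec0, labelled 2 μM alectinib, whose values are given beside those of erLor0. The other 4 samples of the series have no column in it and were not analysed here.

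Each line gave 1 RNA library and 1 H3K27ac library. No difference below therefore has a replicate check, and none was tested. Values are rlog values, which are log2 normalised read counts that DESeq2 shrinks toward the average of a gene or peak when few reads cover it. A change is the rlog of erLor0 minus that of naive cells, so a change of 1 is a doubling on the shrunken scale. The depth of the libraries is unknown, because rlog values do not keep read totals. Members were the genes whose rlog in any of the 4 lines corresponded to about 24.9 normalised reads or more, and the peaks with about 15.0 or more. These were 12705 of 43869 genes and 86315 of 126470 peaks. Of them, 219 genes and 9716 peaks reached the minimum through erCriz0 or erAlec0 alone. Genes and peaks are called higher or lower when the change reached 1 or -1.

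Anaplastic lymphoma kinase (ALK) is a receptor tyrosine kinase that becomes constantly active when fused to EML4, and it then drives RAS, ERK, PI3K and STAT3 signalling. Lorlatinib is an ALK inhibitor that enters the kinase's ATP pocket and keeps activity against many ALK mutants. H3K27ac marks active promoters and enhancers, and it is laid down by EP300 and CREBBP and removed by histone deacetylases. In ChIP-seq the signal of a peak also scales with the number of DNA copies in the cells, and the methods name no subtraction of input DNA.

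The libraries had the markers of an epithelial lung line. Of 10 lung epithelial and adenocarcinoma markers, 8 passed the minimum, among them NKX2-1, EPCAM, CDH1 and the keratins KRT7, KRT8, KRT18 and KRT19, while NAPSA and SFTPB were below it. The 8 changed by 0.01 to 0.50, with a median of 0.25. None of 6 immune markers passed, and PTPRC was at 0.00 in naive and erLor0 cells. No neuroendocrine marker passed, and of the fibroblast markers COL1A1 alone did. Of the squamous and basal markers, KRT5 and DSG3 were below 0 on the rlog scale in naive and erLor0 cells, while SOX2, KRT6A and TP63 passed. SOX2 was at 7.705 in naive and 7.33 in erLor0 cells, and KRT6A at 4.70 and 5.71, with 7.82 in erCriz0. TP63, at 4.44 and 4.28, passed through erAlec0 (5.21). The endothelial genes CDH5 and KDR passed while PECAM1, VWF and TEK did not. CDH5, a cadherin of cell junctions, was at 4.10 in naive and 5.64 in erLor0 cells.

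RNA differed at few genes. At a change of 1, 140 of 12705 genes were higher in erLor0 (1.1%) and 94 were lower (0.74%). The median change was -0.0042, and 90% of genes lay between -0.52 and 0.55. Of the higher genes, 25 lay in a single stretch of 8 Mb on chromosome 1, from TRIM33 (start at chr1:114392790) to EMBP1 (end at chr1:121575702), with 40 expressed genes. Without that stretch, 115 of 12665 genes were higher (0.908%) and 94 were lower (0.742%). Most of the differing genes were protein-coding, 132 of the 140 and 88 of the 94.

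**Figure D1:**
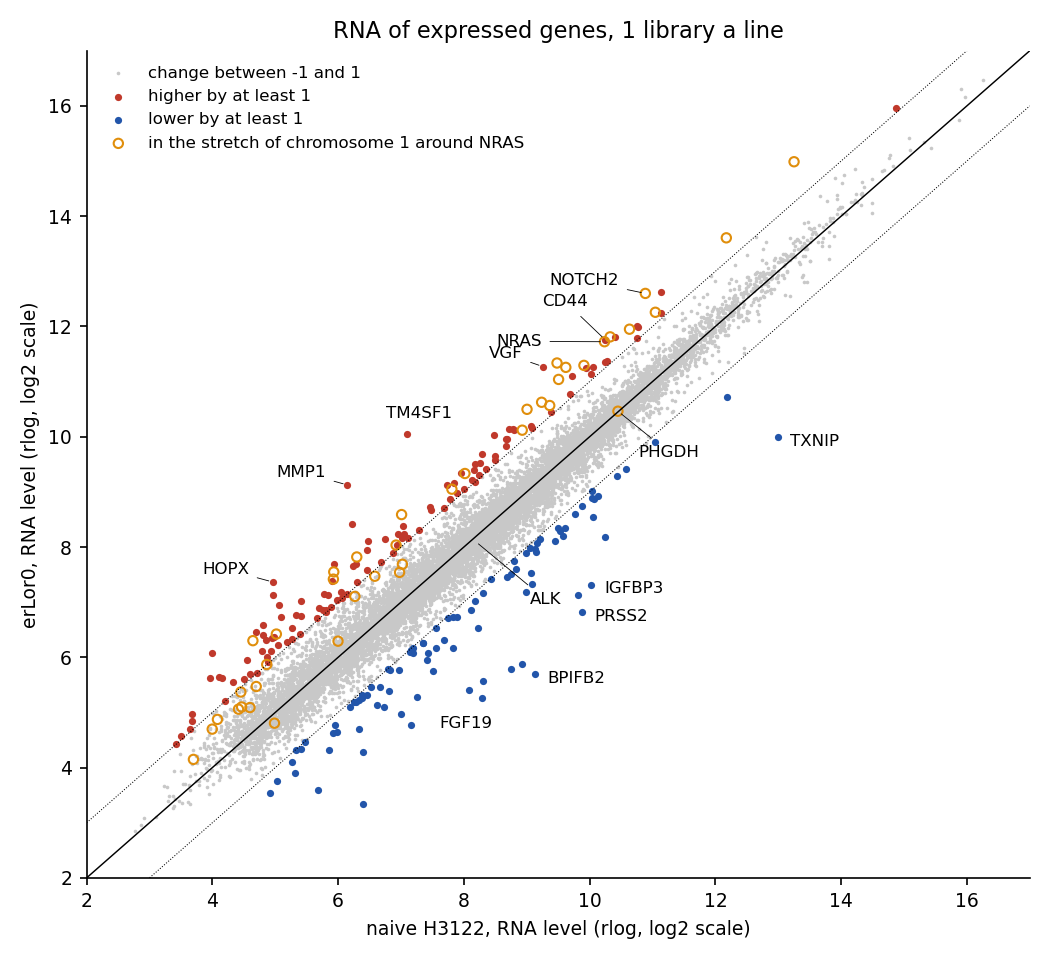
RNA level of each expressed gene in naive H3122 (horizontal) and erLor0 (vertical), both in rlog on a log2 scale, 1 library a line. The solid line marks equal levels and the dotted lines a change of 1 either way; 140 genes lie on or above the upper dotted line and 94 on or below the lower one. Open circles are the 40 genes of the stretch around NRAS, 39 of them above the line of equal levels.

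H3K27ac differed at a larger share of its features. Of 86315 peaks, 8078 were higher in erLor0 (9.36%) and 7802 lower (9.04%), around a median change of 0.06. Without the stretch on chromosome 1 the counts were 7688 (8.95%) and 7802 (9.09%) of 85861. Where both libraries had to reach the minimum, 5409 peaks were higher and 4031 lower, so the near balance of both directions did not hold among these peaks. The spread was wider than for RNA, with 90% of peaks between -1.22 and 1.24.

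The stretch of chromosome 1 moved together. NRAS, a small GTPase that relays growth factor signals to RAF kinases, lies in it on the minus strand at chr1:114704469-114716771 (hg38). Its RNA was at 10.24 in naive, 10.40 in erCriz0 cells, 10.20 in erAlec0 and 11.72 in erLor0, a change of 1.49. Its promoter peak, chr1:114714924-114717570, was at 7.56, 7.62, 7.53 and 9.49 in the same order. In both readouts erLor0 stood above the other lines, which lay close to each other. All 3 peaks paired with NRAS were higher by at least 1.

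Of the 40 expressed genes there, 25 were higher by at least 1, 0 were lower and 39 were above 0, with a median of 1.23. In erCriz0 and erAlec0 the median change of the same genes was 0.16 and -0.06. Of the 454 peaks, 390 were higher and 0 lower, with a median of 1.65 and 90% of values between 0.78 and 2.70. The peak medians in erCriz0 and erAlec0 were 0.03 and -0.03. The stretch held 17.9% of all higher genes and 4.83% of all higher peaks.

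Among its protein-coding genes, 22 of 30 were higher by at least 1. The largest change was that of IGSF3, an immunoglobulin superfamily membrane protein, at 9.48 in naive and 11.34 in erLor0 cells. NOTCH2, a receptor of the Notch pathway, was at 10.89 in naive, 11.90 in erCriz0 cells, 11.44 in erAlec0 and 12.60 in erLor0, so it was also above naive in erCriz0 by 1.01. MAB21L3, GDAP2, TENT5C and SEC22B were higher by 1.66, 1.64, 1.62 and 1.53. NBPF8, by 1.58, belongs to a family of near-identical copies among which reads can be split, and its value is uncertain. NBPF26, FAM72B and SRGAP2C have such copies too.

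PHGDH, the first enzyme of serine synthesis, lies at chr1:119648411-119744226 and was an exception in RNA. Its RNA was at 10.45 in naive, 10.19 in erCriz0 cells, 10.02 in erAlec0 and 10.46 in erLor0, a change of 0.01. The peak at its GENCODE start, chr1:119647164-119650116, was at 7.21 in naive and 9.33 in erLor0 cells, a change of 2.12. That peak also covers the start of ZNF697 on the other strand, whose RNA changed by 0.89. RefSeq places the PHGDH promoter at chr1:119711684-119711983, where the overlapping peak changed by 0.88. Of the 18 peaks paired with PHGDH 15 were higher by at least 1, so acetylation was raised around this gene while its RNA level was not. The other protein-coding gene with a change under 0.5 was TBX15, a T-box transcription factor, at 3.70 in naive and 4.15 in erLor0 cells. TBX15 was below the minimum in both and passed through erCriz0 alone (4.91).

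The RNA boundary on the telomeric side lay between MAGI3 and PHTF1. MAGI3, ending at chr1:113685923, changed by 0.33, and LRIG2 and MOV10 before it by 0.12 and 0.01. PHTF1, starting at chr1:113696831, changed by 1.25, followed by RSBN1 with 1.09 and HIPK1 with 1.22, with AP4B1 and DCLRE1B between them at 0.64 and 0.62. These genes lie outside the stretch as defined and are counted with the rest of the genome. H3K27ac in erLor0 was above naive over a longer distance, and in parts of it erCriz0 or erAlec0 was too. Median peak changes per 1 Mb were 0.54 at 109 to 110 Mb, 0.17 at 110 to 111 Mb, 0.72 at 111 to 112 Mb, 0.91 at 112 to 113 Mb and 1.09 in the last Mb before the stretch, ahead of 1.73 in its first Mb. The last 2 Mb before the stretch had a peak median of 1.015 in erLor0, -0.062 in erCriz0 and 0.555 in erAlec0. From 110 to 112 Mb it was 0.494 in erLor0, 0.490 in erCriz0 and -0.059 in erAlec0. Of 922 bins of 2 Mb with at least 20 peaks and 4 expressed genes, 83 had a median peak change of at least 0.5 in erLor0. At the other end of the stretch the 4 genes of the last Mb had a median change of 0.43 and the 18 peaks there one of 1.22. The number of DNA copies was not measured in these libraries, and its part in the change was not tested.

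**Figure D2:**
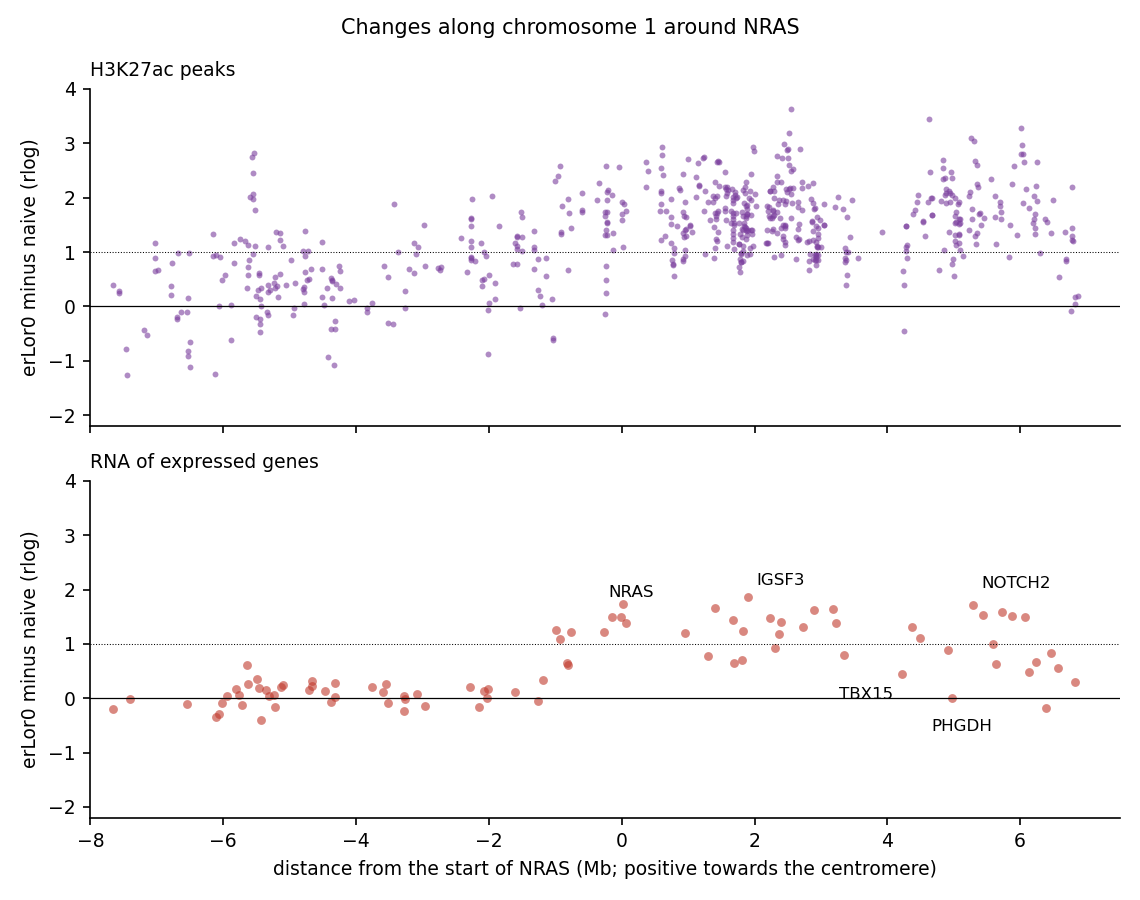
Change from naive to erLor0 of each H3K27ac peak (above) and each expressed gene (below), in rlog, by distance in Mb from the start of NRAS along chromosome 1. Dotted lines mark a change of 1. RNA steps up about 1 Mb before NRAS, peaks climb over several Mb before it, and PHGDH lies near 0 among genes that are higher.

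Outside this stretch the largest rises were those of MMP1 and TM4SF1. MMP1, the interstitial collagenase, was at 6.14 in naive, 8.56 in erCriz0 cells, 9.08 in erAlec0 and 9.13 in erLor0. TM4SF1, a tetraspanin-like surface protein of many carcinomas, was at 7.10, 7.22, 7.26 and 10.04 in the same order. For MMP1 all 3 resistant lines were above naive by over 2, whereas for TM4SF1 erLor0 was alone, with the other lines within 0.16 of naive. Neither gene had a gained peak. None of the 5 peaks paired with MMP1 was higher by 1, and the largest change was 0.14. TM4SF1 lies under a broad peak of 12.23 in naive and 12.32 in erLor0 cells, and its other 4 peaks included 1 that was lower.

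The promoter of TM4SF1 is shown because its RNA was the second most raised outside the stretch while the acetylation over it did not follow. The bases are from RefSeq on GRCh38.p14, minus strand, chr3:149377600-149377899, written 5′ to 3′ from 250 before to 50 after the transcript start. Capitals mark words of 10 factors searched on both strands: AP-1 TGANTCA, TEAD GGAATG, NKX2-1 CACTTGA, FOXA TGTTTAC, KLF GGGCGTG, ETS CCGGAAG, RUNX TGTGGTT, NFKB GGAATTTCC, CEBP TTGCGCAA and CREB TGACGTCA. The words can overlap one another. A match is a run of letters and not a measured site.
TM4SF1: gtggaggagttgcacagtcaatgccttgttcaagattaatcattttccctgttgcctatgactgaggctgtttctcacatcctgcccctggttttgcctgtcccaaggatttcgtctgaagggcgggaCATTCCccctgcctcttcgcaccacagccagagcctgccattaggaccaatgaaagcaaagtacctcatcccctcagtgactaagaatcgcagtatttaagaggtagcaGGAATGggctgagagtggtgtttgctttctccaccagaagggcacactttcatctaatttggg
Both capital runs are the TEAD word, once on each strand, and 4928 of 35116 RefSeq promoters of this length hold it at least once.

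HOPX, an atypical homeodomain protein that marks alveolar type 1 cells and some progenitors, was at 4.96 in naive, 4.70 in erCriz0 cells, 6.95 in erAlec0 and 7.37 in erLor0. It was high in the alectinib and lorlatinib lines and at or below the naive level in the crizotinib line. Here acetylation moved the same way. The HOPX promoter peak, chr4:56679509-56683811, was at 8.17 in naive, 8.18 in erCriz0 cells, 9.72 in erAlec0 and 9.49 in erLor0, and 3 of its 16 paired peaks were higher in erLor0 by at least 1. CD44, the hyaluronan receptor, was at 10.25, 11.57, 10.88 and 11.76 in RNA and at 5.44, 6.27, 6.60 and 6.995 in its promoter peak, chr11:35138713-35140052. All 3 resistant lines were above naive in both readouts of CD44, and 4 of its 7 peaks were higher in erLor0 by at least 1.

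The RefSeq promoters of these 2 genes, inside the gained peaks, are given in the same form, for HOPX on the minus strand at chr4:56681247-56681546 and for CD44 on the plus strand at chr11:35138921-35139220. Capitals mark here, besides the words above, the word CACGNG, which was added after values were seen and occurs in 30.5% of RefSeq promoters.
HOPX: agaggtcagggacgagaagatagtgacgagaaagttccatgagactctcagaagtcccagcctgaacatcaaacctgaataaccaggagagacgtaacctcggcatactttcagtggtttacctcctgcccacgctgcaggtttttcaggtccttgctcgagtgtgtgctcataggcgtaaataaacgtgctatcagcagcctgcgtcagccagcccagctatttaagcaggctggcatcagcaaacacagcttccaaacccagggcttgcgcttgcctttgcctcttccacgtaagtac
CD44: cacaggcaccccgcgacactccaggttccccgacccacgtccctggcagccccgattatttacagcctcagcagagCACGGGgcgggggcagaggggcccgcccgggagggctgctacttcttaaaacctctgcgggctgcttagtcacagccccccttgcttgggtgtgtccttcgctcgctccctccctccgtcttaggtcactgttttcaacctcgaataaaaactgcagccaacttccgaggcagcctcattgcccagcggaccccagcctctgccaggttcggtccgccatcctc
The HOPX window had no match to any word, and the CD44 window had the CACGNG word alone. A second RefSeq promoter of HOPX, chr4:56656468-56656767, overlaps no passing peak and is not printed, and it has the CACGNG word. The GC content was 51.7% for HOPX and 63.3% for CD44.

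Other rises at genes with gained peaks included the mesothelial surface antigen MSLN, the chromatin reader CECR2 and the potassium channel KCNMA1. MSLN was at 3.96 in naive, 4.21 in erCriz0 cells, 6.11 in erAlec0 and 5.62 in erLor0, and its promoter peak was at 7.89, 7.35, 9.47 and 9.36. CECR2 was at 4.81, 4.85, 6.66 and 6.58, with 9 of 14 peaks higher and a largest peak change of 2.28. For KCNMA1, at 5.93, 6.17, 6.73 and 7.69, 9 of 34 peaks were higher. In none of these 3 was a paired peak lower by 1.

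Further genes among the 15 largest rises had no gained peak. PRODH, which starts proline breakdown, was at 6.22 in naive, 6.90 in erCriz0 cells, 8.69 in erAlec0 and 8.42 in erLor0. IL1RL1, the receptor of IL-33, was at 4.97, 6.59, 6.45 and 7.14. It overlaps IL18R1, which changed by 0.67, and how reads in the overlap were split is not given in the sources used here. DKK1, a secreted WNT inhibitor, was at 5.06, 5.92, 7.67 and 6.95. VGF, a neuropeptide precursor, was higher by 2.02 although its promoter peak changed by -0.73. TCIM was higher by 1.64 with a promoter peak changed by -1.32 and 4 of 7 peaks lower. The sodium channel SCN4A and the calcium-binding RCN3 were higher by 1.77 and 1.62.

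**Figure D3:**
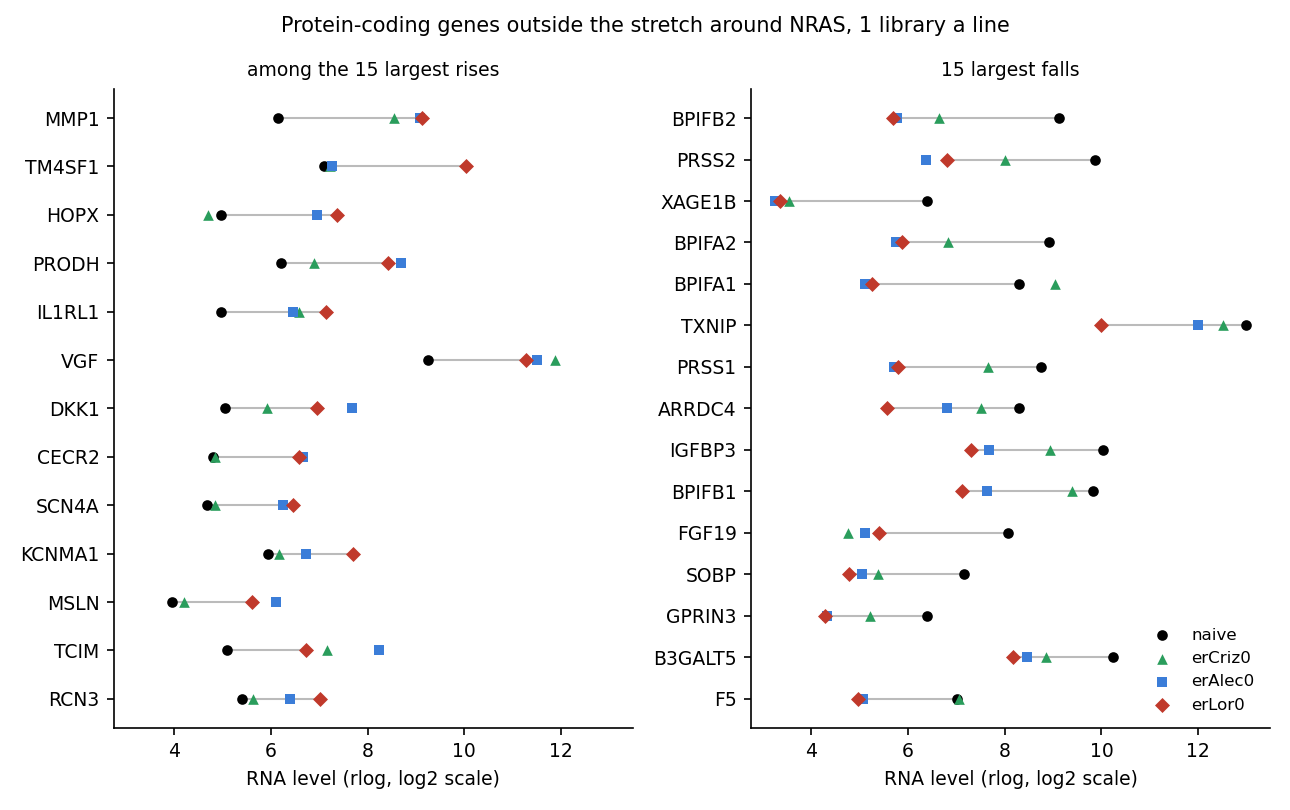
RNA level in rlog of protein-coding genes among the 15 with the largest rise (left) and the 15 with the largest fall (right) from naive to erLor0 outside the stretch around NRAS, in each of the 4 lines, 1 library a line. Grey lines join naive to erLor0. For most genes erAlec0 lies near erLor0; for TM4SF1, TCIM, TXNIP and ARRDC4 it lies at least 1 away from it.

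The largest falls included secreted airway defence proteins and trypsinogens. BPIFB2, of the bactericidal/permeability-increasing fold family, was at 9.13 in naive, 6.65 in erCriz0 cells, 5.78 in erAlec0 and 5.69 in erLor0. Its neighbours on chromosome 20 were lower as well, BPIFA2 by 3.05 (8.92 in naive, 5.87 in erLor0), BPIFA1 by 3.03 (8.29 and 5.26) and BPIFB1 by 2.70 (9.82 and 7.12). In erCriz0, BPIFA1 was instead at 9.03, above naive. The trypsinogens PRSS2 and PRSS1 were at 9.88 and 8.75 in naive and at 6.81 and 5.79 in erLor0 cells. PRSS1 and PRSS2 are near-identical, as are the copies of the cancer-testis antigen XAGE1B (6.395 in naive, 3.35 in erLor0), so the split of reads among them is uncertain.

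Acetylation was lower over part of this cluster. The promoter peak of BPIFB2, chr20:33005264-33012341, was at 10.13 in naive, 10.45 in erCriz0 cells, 7.79 in erAlec0 and 8.72 in erLor0, and both of its peaks were lower by at least 1. The promoter peak of BPIFA2 changed by -1.16, that of BPIFA1 by -0.47 and that of BPIFB1 by 0.09. For PRSS2, 4 of 9 peaks were lower. In erCriz0 the BPIFB2 promoter peak was not below naive although its RNA was lower by 2.48.

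The BPIFB2 promoter, inside its lost peak, is given because this gene had the largest fall in RNA. It lies on the plus strand at chr20:33007454-33007753 on GRCh38.p14.
BPIFB2: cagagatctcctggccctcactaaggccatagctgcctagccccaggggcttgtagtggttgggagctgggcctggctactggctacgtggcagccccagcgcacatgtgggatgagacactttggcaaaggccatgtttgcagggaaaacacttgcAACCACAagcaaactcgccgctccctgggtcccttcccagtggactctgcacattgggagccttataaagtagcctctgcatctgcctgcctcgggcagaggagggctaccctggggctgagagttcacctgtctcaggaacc
Its capitals are the RUNX word, on the minus strand, which 4.27% of RefSeq promoters hold.

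TXNIP and ARRDC4 were lower together. Both are alpha-arrestins that restrain glucose uptake and are known targets of the glucose-sensing factors MondoA and ChREBP. TXNIP was at 13.00 in naive, 12.52 in erCriz0 cells, 11.99 in erAlec0 and 9.99 in erLor0. ARRDC4 was at 8.30, 7.501, 6.80 and 5.57. Both followed the same order of lines, with erLor0 lowest. Their promoter acetylation moved less, from 13.73 to 13.24 for the broad peak over TXNIP and from 7.02 to 7.42 for ARRDC4. In the glycolysis and hypoxia list 0 of 19 expressed genes passed the limit, against 1.1% of all genes higher and 0.74% lower. Of the 19, 14 were above 0, against 6277 of all 12705, and the median was 0.16. The glucose transporter SLC2A1 changed by 0.15.

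The CACGNG word, part of the carbohydrate response elements these factors are known to bind, was looked for in the promoters of both genes after their values were seen. The windows lie on GRCh38.p14 at chr1:145996530-145996829, minus strand, and chr15:97960453-97960752, plus strand.
TXNIP: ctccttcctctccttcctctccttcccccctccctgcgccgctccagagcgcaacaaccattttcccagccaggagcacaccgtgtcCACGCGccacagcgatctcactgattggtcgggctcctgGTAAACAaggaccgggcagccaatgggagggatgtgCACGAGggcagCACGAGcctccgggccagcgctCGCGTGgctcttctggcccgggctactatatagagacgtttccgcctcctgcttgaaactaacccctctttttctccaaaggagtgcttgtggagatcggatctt
ARRDC4: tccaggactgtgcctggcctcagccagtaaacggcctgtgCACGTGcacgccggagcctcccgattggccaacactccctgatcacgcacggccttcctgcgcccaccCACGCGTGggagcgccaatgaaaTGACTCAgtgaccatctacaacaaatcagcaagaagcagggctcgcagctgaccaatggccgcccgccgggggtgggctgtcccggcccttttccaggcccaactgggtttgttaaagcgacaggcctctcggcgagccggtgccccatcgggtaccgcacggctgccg
In these windows TXNIP has 4 CACGNG words and 1 FOXA word, and ARRDC4 has 3 CACGNG words, a pair of them overlapping, and 1 AP-1 word. A second RefSeq promoter of TXNIP, chr1:145995695-145995994, is not printed and has none of the words. Of 35116 RefSeq promoters, 8.16% have at least 2 CACGNG words.

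Growth factor genes were among the other falls. FGF19, an endocrine fibroblast growth factor, was at 8.08 in naive, 4.77 in erCriz0 cells, 5.12 in erAlec0 and 5.398 in erLor0. IGFBP3, which binds insulin-like growth factors, was at 10.03, 8.93, 7.67 and 7.31. EREG, a ligand of EGFR, was lower by 1.29, and its single paired peak by 1.32. SOBP was at 7.16 in naive and 4.78 in erLor0 cells, with its promoter peak lower by 1.65 and 6 of 12 peaks lower. GPRIN3, the glycosyltransferase B3GALT5 and coagulation factor F5 were lower by 2.10, 2.06 and 2.03.

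In the kinase pathway itself NRAS alone passed the limit in RNA. ALK was at 8.18 in naive, 10.65 in erCriz0 cells, 9.58 in erAlec0 and 8.11 in erLor0, and EML4 at 12.30, 13.15, 12.62 and 12.36. The level of ALK was thus raised in the other 2 resistant lines and not in erLor0. Gene counts do not separate fused from unfused ALK. Of 24 genes of the ALK, RAS and ERK cascade, all expressed, 1 was higher by 1, NRAS, and 0 were lower. Over all expressed genes these shares were 1.1% and 0.74%. The list median was 0.07, against -0.0042 over all. HRAS changed by -0.17. PIK3R1, the regulatory subunit of PI3K, was at 9.66 in naive and 8.95 in erLor0 cells, with 5 of 13 peaks lower. Of 18 genes that ERK induces, 0 passed the limit, a count near the shares over all genes, and the median was 0.13. The ERK phosphatases DUSP5 and DUSP6 had changes of 0.92 and 0.72, although 3 of 5 and 9 of 12 of their peaks were lower by at least 1.

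Receptor tyrosine kinases lay mostly above 0. Of 20 expressed, 18 had a positive change, against 6277 of all 12705 genes. The limit was passed by 1 of them, upward, against 1.1% of all. Their median was 0.40, against -0.0042 over all expressed genes. EPHA4, an ephrin receptor, was at 7.02 in naive, 7.41 in erCriz0 cells, 8.39 in erAlec0 and 8.16 in erLor0. AXL was at 4.62, 5.68, 5.56 and 5.60. MERTK, FGFR4 and EPHA2 changed by 0.79, 0.75 and 0.74. EGFR was at 10.84, 11.93, 11.69 and 11.51, and its promoter peak changed by 0.94. ERBB2 was at 9.52, 9.18, 10.09 and 9.95. Of 12 expressed growth factor ligands, PDGFB was higher by 1.01 and FGF19 and EREG were lower, against 1.1% and 0.74% of all. HBEGF, a ligand of EGFR, was at 7.87 in naive and 8.74 in erLor0 cells.

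**Figure D4:**
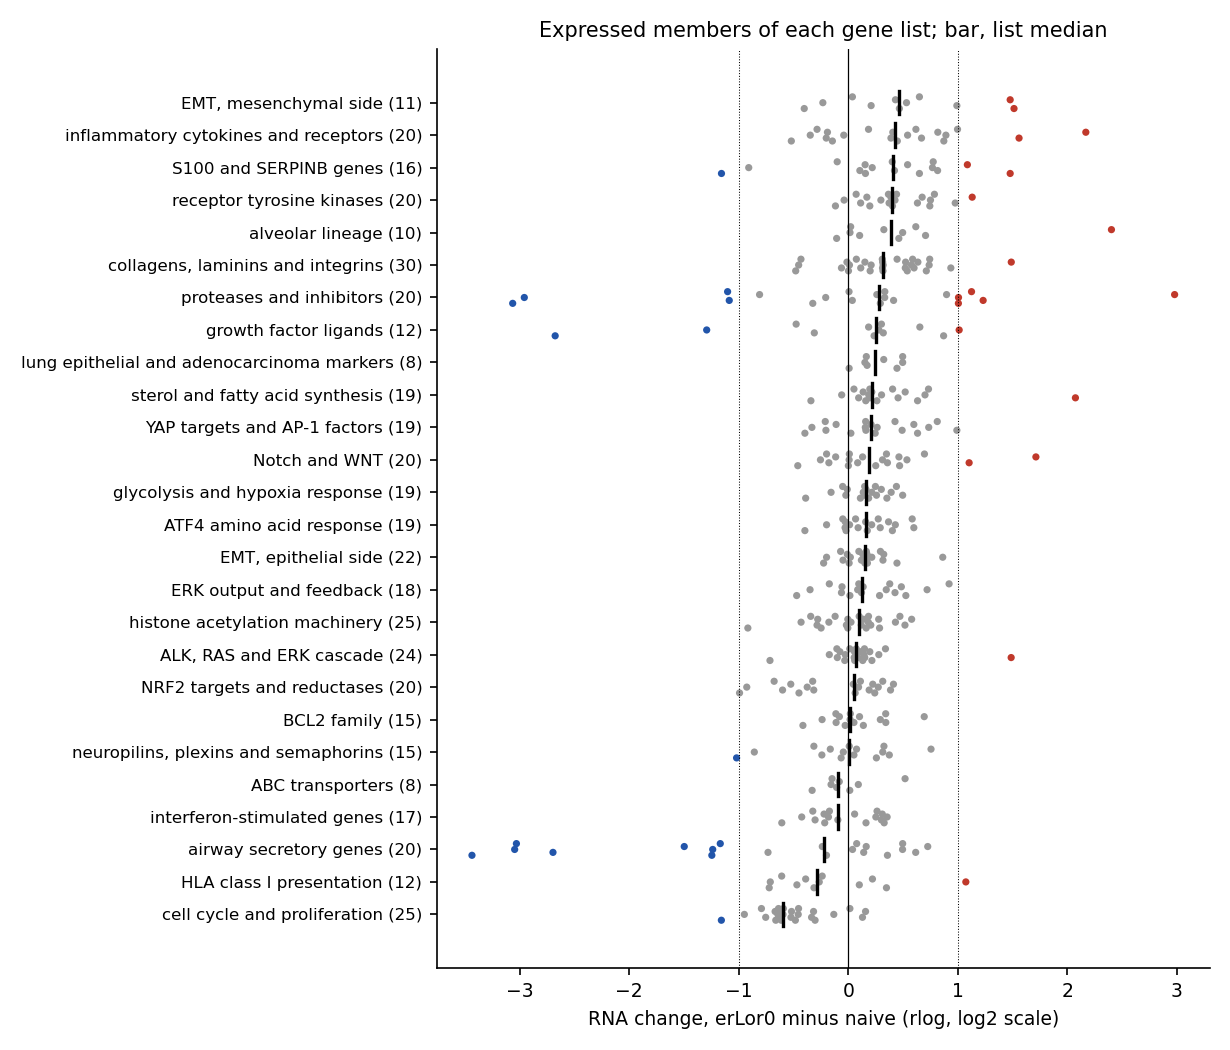
RNA change from naive to erLor0, in rlog, of every expressed member of each gene list with at least 8 expressed members (number in brackets), 1 point a gene. Black bars are list medians and dotted lines mark a change of 1 either way. Cell cycle genes have the lowest median, -0.59, and mesenchymal genes the highest, 0.47.

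Cell cycle genes were shifted down as a group by less than the limit. Of 25 expressed, 22 were below 0, against 6428 of all 12705, and the median was -0.59. PCNA, the sliding clamp of DNA replication, was alone past the limit, at 9.50 in naive, 8.52 in erCriz0 cells, 7.69 in erAlec0 and 8.34 in erLor0. MCM4 and MCM2, of the replicative helicase, changed by -0.95 and -0.75. MKI67 changed by -0.63, while the cyclin CCND3 changed by -0.13. The list median was -0.59 in erCriz0 and -0.82 in erAlec0. Their promoter peaks had a median change of 0.67 over 25 genes, against 0.41 over all 11256 expressed genes with a promoter peak. The histone genes of the replication-dependent clusters, chosen after their values were seen, had a median of -0.66 over 32 genes, with 8 lower by at least 1 and 0 higher, against 0.74% of all expressed genes lower. Their medians were -0.89 in erCriz0 and -0.69 in erAlec0. Cell number and growth state at harvest were not recorded in the labels, and their part in these shifts was not tested.

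Among genes of the epithelial to mesenchymal transition, those past the limit were on the mesenchymal side. All 22 epithelial genes were expressed and 0 were lower by 1, against 0.74% of all expressed genes. Their lowest change was -0.22 and their median 0.15, and CDH1 changed by 0.01 and EPCAM by 0.17. On the mesenchymal side 11 of 14 were expressed. Of the 11, 2 were higher by 1, CD44 by 1.51 and S100A4 by 1.48, against 1.1% of all expressed genes. Above 0 were 9 of the 11, against 6277 of all 12705, and the median was 0.47. VIM, the intermediate filament of mesenchymal cells, was at 5.74 in naive, 8.13 in erCriz0 cells, 7.20 in erAlec0 and 6.27 in erLor0, so erLor0 was the resistant line nearest to naive. ZEB1, ZEB2 and TWIST1 did not pass the minimum. WWTR1, a coactivator that acts with YAP1, was at 9.52 and 10.51, with 5 of 10 peaks higher and 1 intronic peak higher by 2.02.

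Proteases moved both ways. Of 20 expressed members of the list, 5 were higher and 4 lower, against 1.1% and 0.74% of all expressed genes. Besides MMP1, the higher ones were MMP10 (1.01), the membrane collagenase MMP14 (1.23), the urokinase PLAU (1.13) and the kallikrein KLK10 (1.01). MMP10 was below the minimum in naive (3.42) and erLor0 cells (4.43) and passed through erAlec0 alone (5.27). KLK10 was below the minimum in naive (4.195) and above it in erLor0 cells (5.20). After quantile normalisation MMP10 and KLK10 were short of the limit, at 0.95 and 0.96. MMP14 and KLK10 had promoter peaks higher by 1.23 and 1.24, and PLAU did not (-0.26). Lower were PRSS1, PRSS2, the inhibitor TIMP3 (-1.10) and the lysosomal protease CTSL (-1.09). CTSL was higher in erCriz0 by 2.24. Among 30 expressed collagens, laminins and integrins, COL7A1, the collagen of anchoring fibrils, was past the limit, at 6.46 in naive, 5.96 in erCriz0 cells, 6.86 in erAlec0 and 7.95 in erLor0. THBS1 changed by 0.94, and 25 of the 30 genes were above 0, against 6277 of all 12705.

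The airway secretory list was divided. Of 20 expressed members 8 were lower and 0 higher, against 0.74% of all expressed genes lower. Apart from the 4 BPIF genes these were WFDC2 (-1.498), TFF3 (-1.25), LCN2 (-1.24) and SLPI (-1.17), all secreted proteins of mucosal surfaces. The mucins MUC5AC and MUC5B, in contrast, had changes of 0.73 and 0.50. None of WFDC2, TFF3, LCN2 and SLPI had a promoter peak lower by 1, with the lowest at -0.39 for SLPI. Of 10 expressed genes of the alveolar list HOPX alone was past the limit, upward, against 1.1% of all. NKX2-1 changed by 0.50 and the surfactant genes SFTPA1, SFTPB and SFTPC did not pass the minimum.

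Inflammatory, immune and metabolic genes were mixed. CXCL8, the neutrophil chemokine, was at 8.48 in naive, 8.04 in erCriz0 cells, 11.21 in erAlec0 and 10.04 in erLor0, although its promoter peak was lower in erLor0, at 8.59 and 7.59. CXCL2 and OSMR changed by 1.00 and 0.89, the former falling just short of the limit. CD274, the immune checkpoint ligand PD-L1, was higher by 1.07. In the list of HLA class I presentation that holds it, 8 of 12 expressed genes were below 0, among them PSMB8 (-0.72) and HLA-B (-0.71), and so were 6428 of all 12705. Interferon-stimulated genes had a median of -0.10 in erLor0 and of 1.14 in erCriz0. In sterol and fatty acid synthesis 17 of 19 genes were above 0, against 6277 of all 12705, and the list median was 0.21. Of the 19, 1 was higher by at least 1, against 1.1% of all, with LSS at 0.73 and SCD at 0.70. The reductases AKR1C2 and AKR1C3 changed by -0.99 and -0.93. Of 8 expressed ABC transporters 0 passed the limit, against 1.1% of all genes higher and 0.74% lower. ABCB1, a drug efflux pump, was below the minimum.

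In the remaining lists few genes passed, and over all expressed genes 1.1% were higher and 0.74% lower. NOTCH3 was higher by 1.10 and NOTCH2 by 1.71, of 20 expressed Notch and WNT genes, and without the stretch NOTCH3 was alone. S100A14 was higher by 1.09 and SERPINB9, an inhibitor of granzyme B, lower by 1.16. NRP2, a semaphorin coreceptor, was lower by 1.02, and its ligand SEMA3F changed by -0.86 with 11 of 17 peaks lower. YAP targets and AP-1 factors, the BCL2 family, the amino acid response of ATF4 and the ERK-induced genes had 0 genes past the limit. These lists hold 15 to 19 expressed genes, so a count of 0 lies near the shares over all genes. The histone acetylation machinery also had 0 past the limit, and its median was 0.10 over 25 genes. Its most changed member was HDAC9, a class II deacetylase, at 7.86 in naive and 6.95 in erLor0 cells, with 19 of 48 paired peaks lower and 1 intronic peak lower by 2.23.

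Peaks at promoters and elsewhere differed in their balance. Of 26079 promoter peaks, within 1 kb of a transcript start, 9.60% were higher and 3.74% lower, with a median change of 0.31. Of 41477 intronic peaks 9.30% were higher and 11.4% lower, and of 15310 intergenic peaks 9.52% and 11.8%, with medians of -0.09 and -0.07. The promoter median was also positive in erCriz0 (0.26) and erAlec0 (0.17). Change differed with GC content, mostly in the top decile. In the GC decile at the top, at least 64.3% GC, the median change was 0.52, against -0.08 in the lowest decile. At promoters the median was between 0.11 and 0.28 in the other 9 deciles and 0.55 at the top. Away from promoters it was between -0.14 and -0.06 in those 9 and 0.28 at the top. With the median of each decile taken off, 7347 peaks were higher and 7767 lower. In erCriz0 and erAlec0 the top decile had medians of 0.39 and 0.31. Differences in GC recovery between ChIP libraries were not measured, and their part in these medians was not tested.

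**Figure D5:**
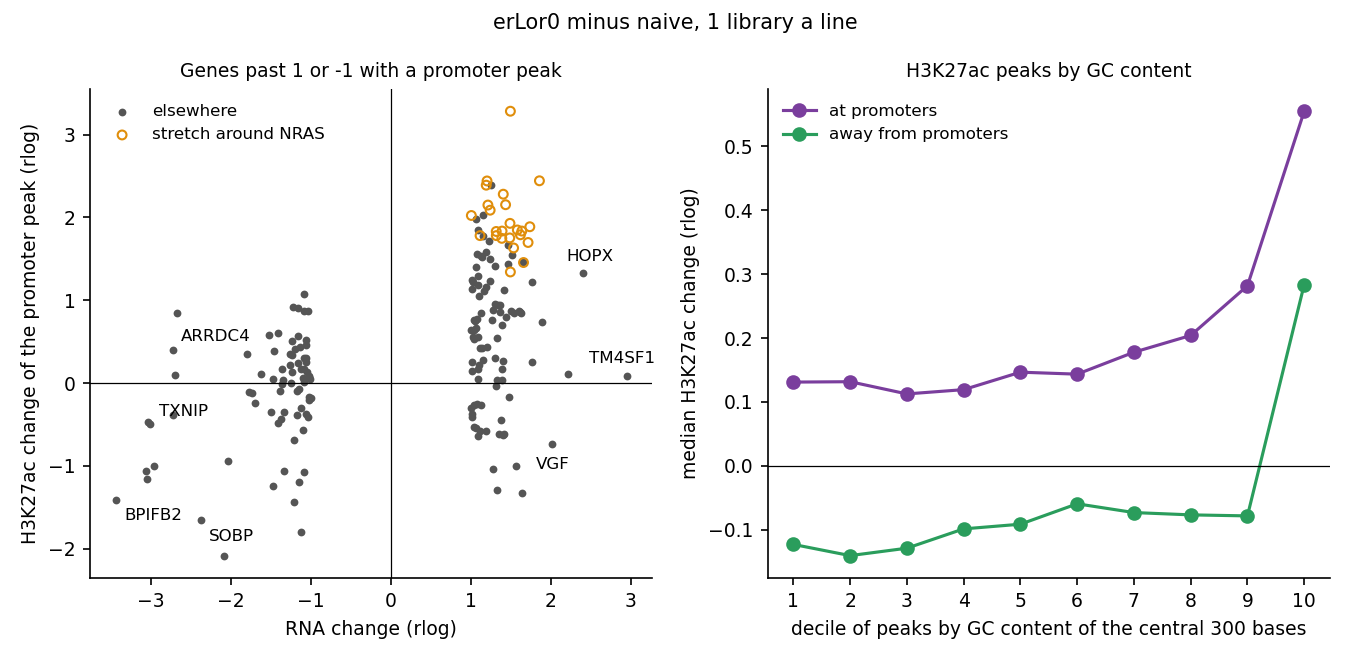
Left, change in RNA against change in the promoter H3K27ac peak, both in rlog, for genes whose RNA was higher or lower by at least 1 and which have a promoter peak; open circles lie in the stretch around NRAS. Right, median H3K27ac change by decile of GC content, at promoters and elsewhere. Medians are highest in the top decile, 0.55 at promoters and 0.28 elsewhere.

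The 5 largest gains of H3K27ac outside the stretch were between 2.85 and 3.26. The first, at chr8:129792976-129795936, 6352 bases from GSDMC, went from 4.89 in naive to 8.15 in erLor0 cells. One over the start of SLC17A4, chr6:25755222-25761796, was at 6.13 in naive, 6.09 in erCriz0 cells, 8.66 in erAlec0 and 9.07 in erLor0. The others of the top 5, on chromosomes 4, 14 and 7, rose by 3.02, 2.93 and 2.85. In all 5 erAlec0 was higher than naive too, by 1.92 to 2.77, and erCriz0 was within 0.29 of it. In the stretch the largest gain, 3.63, was at chr1:117265171-117273685 over LINC01525.

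Among the 5 largest losses were peaks at HNRNPA1L3, LINC02699 and RPS14P7. The first, chr16:51622194-51623948, went from 6.37 in naive to 3.76 in erCriz0 cells, 3.24 in erAlec0 and 3.05 in erLor0 cells. The second, chr11:25765099-25769406, was at 8.23, 7.39, 5.50 and 5.05 in the same order, and the third, chr4:160818361-160821291, at 7.65, 6.58, 4.98 and 4.48. All 3 were lower in erAlec0 by at least 2.67. In erCriz0 their changes ran from -0.84 to -2.62.

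Motif words in the central 300 bases of a peak, whose centre is not its summit, differed in frequency between gained and lost peaks. The AP-1 word was in 13.6% of lower peaks, 7.86% of higher peaks and 9.88% of all peaks. Away from promoters and without the stretch, the shares were 13.4%, 9.08% and 11.1%. The NKX2-1 word was in 6.54% of lower, 7.80% of higher and 7.33% of all peaks. The KLF word, rich in GC, was in 1.96%, 4.75% and 4.59%, and the median GC content was 44% in lower, 48.3% in higher and 49.0% in all peaks. FOXA, TEAD and RUNX words were in 5.51%, 17.5% and 6.28% of lower peaks. The same words were in 4.68%, 15.3% and 4.82% of higher peaks and in 4.28%, 16.02% and 5.27% of all. ETS, CREB, NFKB and CEBP words were in at most 2.54% of any of these groups. The lower peaks differ from the rest in GC content and in their share at promoters, 12.5% against 30.2%. Away from promoters and without the stretch, TEAD, RUNX and FOXA words were in 17.6%, 6.15% and 5.61% of lower peaks. The shares there were 16.7%, 5.47% and 5.20% of higher peaks and 16.9%, 5.77% and 4.72% of all. NKX2-1 and KLF words were in 6.445% and 1.92% of lower, 9.27% and 3.27% of higher and 8.45% and 3.70% of all peaks there. The part of GC content and promoter share in the word counts was not tested.

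Peaks near genes with changed RNA followed the direction of the RNA in part. The 1340 peaks paired with the 138 higher genes that have a peak had a median change of 0.36, against 0.09 for peaks of all expressed genes. Without the stretch it was 0.17, over 1109 peaks of 113 genes. The 730 peaks of 92 lower genes had a median of -0.44. A paired peak higher by 1 was present at 71 of the 138 higher genes (51.4%, exact 95% interval 42.8 to 60.0, counting error only) and at 27.5% of all expressed genes. Without the stretch it was present at 46 of 113 (40.7%). Over peaks written to at most 6 decimals, which lie on chromosomes 3 to 9, 20 to 22, X and Y, it was 9 of 33 higher genes (27.3%, 13.3 to 45.5), next to 27.2% of all expressed genes there, and the median change was 0.14 next to 0.06. Over the other peaks it was 62 of 105 (59.0%), or 37 of 80 (46.3%) without the stretch, next to 27.7% and 27.3% of all. A paired peak lower by 1 was present at 42 of the 92 lower genes (45.7%, 35.2 to 56.4) and at 16.7% of all. Over the 2 sets of peaks it was 45.8% and 45.5%. Genes with more peaks have more chances to hold one that passed, so these shares depend on the number of peaks a gene has. The intervals take genes as independent, although neighbouring genes can share peaks. All genes come from 1 library a side, so the intervals do not measure spread between cultures.

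At promoters the pattern was similar but offset. Promoter peaks of all 11256 expressed genes that have one had a median change of 0.41. Those of the higher genes had 0.87, or 0.70 without the stretch, and those of the lower genes 0.01. A promoter peak higher by 1 was found at 45.3% of higher genes, 31.2% without the stretch, against 7.83% of all. A promoter peak lower by 1 was found at 12 of 75 lower genes and at 74 of all 11256.

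Apart from the NRAS stretch, few regions moved in both readouts. Of 922 bins of 2 Mb with at least 20 peaks and 4 expressed genes, 5 had both medians at 0.5 or more, and 4 of them make up the stretch. The fifth was chr17 from 18 to 20 Mb, with a median peak change of 0.68 over 129 peaks and a median RNA change of 0.58 over 29 genes. In erAlec0 the same bin had 0.86 and 0.79, and in erCriz0 0.24 and -0.16. Over the wider 14 to 22 Mb of chromosome 17, bounds set after the values were seen, 66 of 75 genes were above 0, against 6277 of all 12705. Of the 75, 5 were higher by 1, against 1.1% of all. Among the 5 were the ERK5 kinase MAPK7 (7.68 in naive, 8.70 in erLor0) and the RAS-related GTPase RASD1 (9.95 and 11.25).

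Joint loss was found in 3 bins. On chromosome 6 from 152 to 154 Mb the peak median was -1.17 over 42 peaks, 24 of them lower by 1, and the RNA median -0.58 over 4 genes. RGS17, a regulator of G-protein signalling there, was at 10.05 in naive, 10.72 in erCriz0 cells, 8.65 in erAlec0 and 8.89 in erLor0, whereas SYNE1 in the same bin was higher by 1.07. The bin from 118 to 120 Mb had medians of -0.80 and -0.57, with all 5 genes below 0 and none past the limit. On chromosome 5 from 92 to 94 Mb they were -0.81 and -0.57, and NR2F1, a nuclear receptor, changed by -0.74. In erCriz0 all 3 bins had positive medians in both readouts, from 0.44 to 0.62. In erAlec0 all 3 were below 0 in both, with peak medians of -1.43, -0.14 and -0.52 and RNA medians of -0.60, -0.40 and -0.45 in the order given.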

How the data were processed

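The authors deposited 1 table that pairs H3K27ac peaks with genes within 20 kb, with log2-scale rlog values of 4 RNA and 4 ChIP-seq libraries. By their methods, ChIP reads were aligned to hg38 with BWA, duplicates were removed, MACS2 peaks of the 4 lines were merged and blacklisted regions dropped, and reads were counted with featureCounts. RNA reads were aligned with HISAT2 and counted with HTSeq-count, and the authors took rlog values of both from DESeq2. Versions are not given in the sources used here. The authors' columns of correlations and p-values in the deposited table were not used, and 0 value columns were left unmapped.

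From these, 1 row was kept for each gene and each peak, members were taken by the minimums in the report, and naive was subtracted from erLor0. With 1 library a side no test was run. Starts were raised by 1 to count from 1. Symbols and gene types came from GENCODE 44, which held 34115 of 43869 gene identifiers in the same version. Promoter sequences came from RefSeq on GRCh38.p14. A peak within 1 kb of a transcript start was called a promoter peak.

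Members and gene lists were chosen with earlier results of these data known. Named genes were the 15 protein-coding genes with the largest rise and the 15 with the largest fall outside the 8 Mb stretch of chromosome 1, the 8 largest rises inside it and any there under 0.5, list members past 1 or -1 with up to 4 more a list, and ALK, EML4, NRAS, EGFR, ERBB2 and HOPX. Some genes and peaks that this rule names are not reported here. Any other gene was named after its values were seen, for its position or its list. Alternatives were the filters, centring, quantile normalisation, pairing distance, stricter limits, GC content and the number of decimals written. Python 3.11.15, pandas 2.3.3, numpy 2.4.6, scipy 1.17.1 and pysam 0.24.0 were used, and the scripts were tested on simulated data.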

Additional observations from a re-analysis of the deposited data

Results flagged for a closer look

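For the 6 genes given here the change in erCriz0 ran opposite to that in erLor0 by at least 0.5. With 1 library a line these differences were not tested. COL7A1 changed by 1.49 in erLor0 and by -0.506 in erCriz0. BPIFA1 changed by -3.03 in erLor0 and by 0.738 in erCriz0, and LCN2 by -1.24 and 0.904. NRP2 changed by -1.02 and 1.222, SERPINB9 by -1.16 and 0.872, and CTSL by -1.09 and 2.242.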

How the results depend on the processing

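No paired analysis was possible because each line has 1 library and no result comes from a test. With 1 library a side, culture, library and line cannot be told apart, and the depth is unknown. Of 58 alternative values of the main counts, medians and shares, 49 kept within 1.5 times, 0.1 or the 95% interval of the value reported. That interval takes genes as independent and serves here only as a set width. Requiring both libraries to reach the minimum left 4031 lower peaks in place of 7802, by its own construction. The median peak change at higher genes was 0.17 without the 8 Mb stretch of chromosome 1, 0.86 for genes past 1.5 and 0.14 over peaks written to at most 6 decimals, which are in effect other chromosomes. The share of higher genes with a higher peak was 40.7% without the stretch and 27.3% over those peaks. At lower genes the median was -0.78 over peaks paired with 1 gene and -0.60 for genes past -1.5, and the share with a lower peak was 66.7% for the latter. The cause was not tested. Of the values of single genes, lists and words, 424 held and 22 moved. Among these a change of sign was looked for only at named genes past 1 or -1, where none was found. Centring each library took WWTR1, CXCL2 and NRP2 across the limit of 1, and quantile normalisation took KRT6A, S100A14, MMP10 and KLK10 across it. Taking off the median change of each GC decile, chosen after seeing the data, kept all 6 counts, medians and shares it was applied to within those bounds.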
